A study of Mus musculus with 25 samples.

Results

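The joins described here come from mouse embryonic stem cells that received Tus and an siRNA (a small RNA that silences the gene it matches) directed at FANCM, in 2 genotypes that the labels write as BRCA1del/exon11 and BRCA1flox/exon11 and that are called BRCA1del and BRCA1flox here. They are all junctions listed in the 2 tables of these groups, 2639 of the 11867 junctions analysed in the series, with 1326 in BRCA1del and 1313 in BRCA1flox. Cells of both genotypes carried a 4-kb reporter cassette with 1 GFP copy in the ROSA26 locus and a bait break made by Cas9 30 kb away from it, grew on mouse embryonic fibroblast feeders, and gave DNA 48 h after transfection. All groups compared here share that cassette, that bait and that time after transfection. The control siRNA, against luciferase, was used with Tus in both genotypes. With the siRNA against FANCM, BRCA1del cells also received I-SceI or the control called EV in the labels. Each group of Tus with siFANCM has 3 samples. The labels do not say how many clones stand for a genotype, whether samples were separate cultures, or what the part of the allele name after the slash stands for, and neither the BRCA1 allele nor the depletion of FANCM can be read from junctions.

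Tus is a bacterial protein that binds the Ter sequence and, bound there, blocks replication forks that arrive from one side. BRCA1 acts in homologous recombination and in the processing and protection of stalled forks, and its exon 11 encodes a large part of the protein. FANCM is a DNA translocase that binds branched DNA at stalled forks and anchors the Fanconi anemia complex. When broken ends are joined without a template, the join may be blunt, may hold a few bases that both ends share (microhomology, typical of alternative end joining), or may hold inserted bases. The comparison asks which of these joins, and which places in the Ter array, differed between BRCA1 genotypes when FANCM was targeted in both.

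LAM-HTGTS, a sequencing method for translocations that starts with linear amplification from the bait, reads outward from the bait into whatever DNA was joined to it. Each junction therefore gives the last bait base, the first cassette base and the direction of the cassette DNA. Positions are 1-based coordinates of the deposited cassette reference, not of a genome build. Each of the 6 Ter elements has 23 bp. The left repeat holds those at 3048 to 3070, 3076 to 3098 and 3104 to 3126, and the right repeat those at 3166 to 3188, 3194 to 3216 and 3222 to 3244. They lie within a stretch called the array here (3024 to 3277) that ends with the I-SceI site (3260 to 3277). The cassette body runs from 1 to 3617 and the polyA region from 3618 on. A join is called leftward where the cassette DNA ran from the junction toward position 1, and rightward where it ran the other way.

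Read names carry 4 sequencing runs, A to D, and the reads of 1 run in 1 group were treated as a library. BRCA1del had 686 junctions in run A, 492 in run C and 148 in run D. BRCA1flox had 634 in run B, 479 in run C and 200 in run D. For Tus with siFANCM, run A held only BRCA1del and run B only BRCA1flox, so the genotypes were compared within runs C and D. The comparison used an exact conditional test of a common odds ratio, two-sided and adjusted by Benjamini-Hochberg over 11 measures. This test covers counting error only. An exact permutation of the 3 libraries against 3 stands beside it and cannot give a p below 0.10. Runs C and D opened with the same 5-base read start in 8 of 8 Tus groups, but the same join (position, strand, far end and bait end) recurred in both runs for 2.19% of the distinct joins of run D in BRCA1del and 1.08% in BRCA1flox, no more than the range of 1.3% to 5% between runs with different read starts. The EV libraries, of BRCA1del with siFANCM only, had 468 junctions, of which 5 were in the body and 1 in the array. In BRCA1del, body joins were thus rare without Tus or I-SceI. BRCA1flox had no EV library.

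The end of the bait is shown because the bases shared with the cassette lie in it. The last 50 of its 145 rebuilt bases are printed (bait bases 96 to 145, mouse sequence, 5′ to 3′, the final base taken as the cut). Capitals mark stretches that recurred at array joins and were picked after their counts were seen.
Bait end with ACTT: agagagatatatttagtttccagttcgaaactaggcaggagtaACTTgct
Bait end with AGTT: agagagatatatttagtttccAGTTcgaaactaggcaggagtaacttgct
Bait end with TTTAGTT: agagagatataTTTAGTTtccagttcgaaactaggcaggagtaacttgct
Bait end with GTAACT: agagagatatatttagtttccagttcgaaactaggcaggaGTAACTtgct

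Array joins were blunt more often in BRCA1del than in BRCA1flox and carried microhomology less often. Of 11 measures, 2 passed the test (18.2%), and these were the 2. Blunt joins made up 26.2% of array joins in run A, 24.3% in run C and 15.5% in run D of BRCA1del. In BRCA1flox they made up 10.8% in run B, 13.0% in run C and 9.73% in run D. Each BRCA1del library lay above each BRCA1flox library, and within a shared run the difference was wider in run C than in run D. In the shared runs together, 76 of 338 joins were blunt in BRCA1del (22.5%) and 41 of 343 in BRCA1flox (12%), a difference of 9.86 percentage points (95% interval 4.23 to 15.5). The odds ratio was 2.03 (1.32 to 3.18; adjusted p = 0.0106, exact conditional test). Over libraries the mean was 22.0% ± 5.7 against 11.2% ± 1.7 (SD, n = 3 each), with an exact permutation p of 0.10, the smallest possible. Libraries of the genotypes did not overlap for 2 of the 11 measures (18.2%), blunt joins and joins right of the array.

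Microhomology of at least 2 bp was found in 33.8% of array joins in run A, 32.6% in run C and 50.7% in run D of BRCA1del. The BRCA1flox values were 46.5% in run B, 47.4% in run C and 52.2% in run D. Runs A and C of BRCA1del lay below every BRCA1flox library, while run D lay among them. Over the shared runs the counts were 123 of 338 (36.4%) and 168 of 343 (49.0%), a difference of -11.3 points (-18.8 to -3.92) and an odds ratio of 0.626 (0.453 to 0.863; adjusted p = 0.0198, exact conditional test). The mean over libraries was 39.0% ± 10.1 against 48.7% ± 3.1 (n = 3 each; exact permutation p = 0.30). In BRCA1del, the 95% Wilson interval of run D, 39.3% to 62.0% from 71 joins, did not overlap that of run C, 27.2% to 38.4% from 267 joins.

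Both calls rested on run C. Without it, run D alone gave 5.76 points for blunt joins and -1.51 points for microhomology, and neither passed. Neither passed with each position and strand counted once per library (10.2 and -8.06 points), or in the span of the Ter elements alone (7.06 and -9.77 points; adjusted p = 0.118 for each, exact conditional test). Counting by position and strand also drops different joins that share a place. It left 195 of 338 BRCA1del and 210 of 343 BRCA1flox joins. Where only repeats of the same join, as defined above, were dropped within a library, 338 and 342 joins were left. Both calls then passed (9.81 and -11.2 points; adjusted p = 0.0106 and 0.0199, exact conditional test). With no mismatch tolerated in extending the bait and cassette match, microhomology did not pass (-9.82 points; adjusted p = 0.0629, exact conditional test) and blunt joins did (10.2 points; adjusted p = 0.00504). Shares of blunt, microhomology and inserted joins are parts of 1 whole and are not independent.

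**Figure D1:**
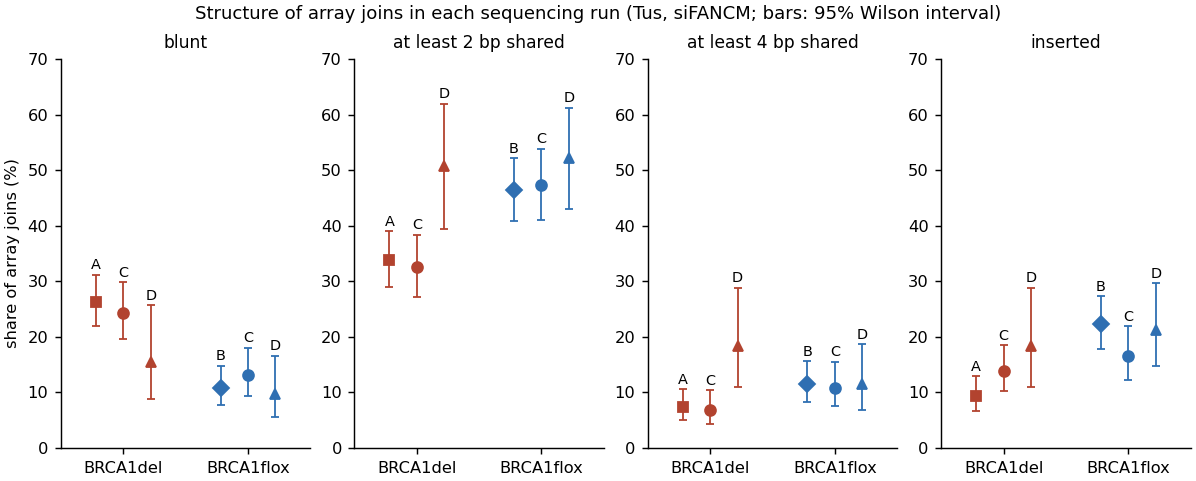
Share of array joins (%) that were blunt, shared at least 2 bp, shared at least 4 bp or held inserted bases, with 1 point per sequencing run (letters A to D; square A, diamond B, circle C, triangle D) and 95% Wilson intervals as bars, for BRCA1del in red and BRCA1flox in blue. Blunt shares ran from 15.5% to 26.2% in BRCA1del and from 9.73% to 13.0% in BRCA1flox, and run D of BRCA1del stood with the BRCA1flox libraries for microhomology.

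The lengths of the shared stretches show where the genotypes parted. Joins with 1 shared base, which count as neither blunt nor microhomology, were 89 of 338 in BRCA1del (26.3%) and 72 of 343 in BRCA1flox (21.0%) within runs C and D. From 2 shared bases on the order was turned. There were 63 against 88 joins with 2 shared bases (18.6% and 25.7%), 29 against 42 with 3 (8.58% and 12.2%), 25 against 27 with 4 (7.40% and 7.87%) and 6 against 11 with 5 or more (1.78% and 3.21%). Run D alone had the other order at 1 shared base (15.5% in BRCA1del, 16.8% in BRCA1flox) and at 4 (15.5% and 7.96%). Single lengths were not tested. With at least 1 bp the difference was -7.12 points and with at least 3 bp -4.93 points, and neither passed (adjusted p = 0.329 and 0.451, exact conditional test).

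**Figure D2:**
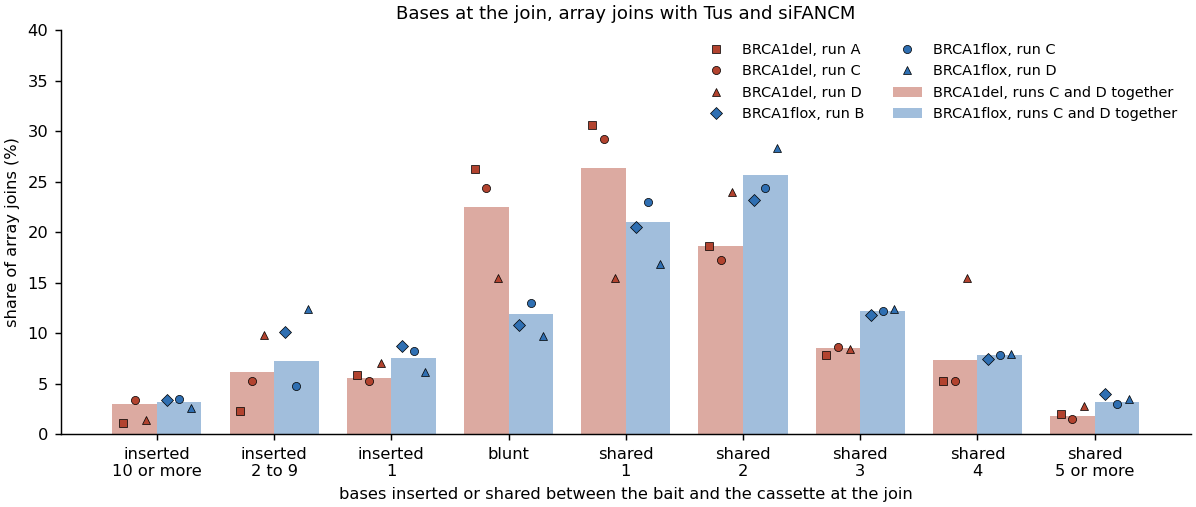
Share of array joins (%) by the bases inserted or shared at the join, with bars for runs C and D together and points for single runs (square A, diamond B, circle C, triangle D), BRCA1del in red and BRCA1flox in blue. BRCA1del bars are the taller ones at blunt and at 1 shared base, and BRCA1flox bars at 2 and 3 shared bases. Run D of BRCA1del stands at 15.5% for blunt, for 1 and for 4 shared bases.

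Long microhomology, of at least 4 bp, made up 7.29%, 6.74% and 18.3% of array joins in runs A, C and D of BRCA1del. BRCA1flox had 11.4%, 10.9% and 11.5% in runs B, C and D. Run D of BRCA1del was thus the highest of the 6 libraries and its other runs were the lowest. Over runs C and D the counts were 31 of 338 (9.17%) and 38 of 343 (11.1%), a difference of -1.28 points (-5.93 to 3.38) that did not pass (adjusted p = 0.837, exact conditional test). In run D of BRCA1del, 8 of 11 joins with 4 shared bases shared ACTT with the bait, and these 8 began at 8 different places of the array, so they were not repeats of 1 join.

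On the cassette side, most joins that shared at least 2 bp began inside a Ter element. Over all runs 545 array joins shared at least 2 bp, 239 in BRCA1del and 306 in BRCA1flox, with 62 different shared stretches. The cassette part began inside a Ter element in 434 of the 545 (79.6%). The same share was not taken over all array joins, so 79.6% is not a trait of joins with microhomology. In runs C and D, 302 of 338 array joins in BRCA1del and 314 of 343 in BRCA1flox lay in the span of the Ter elements. The dinucleotide TT was the commonest, with 41 joins in BRCA1del and 35 in BRCA1flox. It was followed by TA with 30 and 32.

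Of the 4-base stretches, ACTT and AGTT made up 57 of 92 joins (62.0%). ACTT was shared by 18 BRCA1del and 17 BRCA1flox joins. All 35 ended at bait base 142, 3 bases from the cut, and ran leftward from base 23 of a Ter element (22 joins, in all 6 elements) or from base 7 (13 joins, in 5 elements). AGTT was shared by 7 BRCA1del and 15 BRCA1flox joins, all leftward and from base 18 of a Ter element, and 18 of the 22 ended at bait base 120, 25 bases from the cut. The longer stretch TTTAGTT was shared by 7 joins of each genotype at bait base 113, 32 bases from the cut, always from base 21 of a Ter element. GTAACT occurred at rightward joins only, in 3 BRCA1del and 8 BRCA1flox joins, at bait base 141 and base 13 of a Ter element. Both genotypes share the bait and Ter sequences, which set where these stretches can pair, and the same pairings appeared in both. Counts were close to equal for ACTT and TTTAGTT. These stretches were picked after their counts were seen, and their counts were not tested between genotypes.

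Over both genotypes the 3 commonest bait ends were the intact end at base 145 (210 array joins), base 142 (110) and base 141 (66). The intact end came first and base 142 next in each genotype. Base 141 had 31 joins in BRCA1del, just under the 32 of base 128, and 35 in BRCA1flox, level with base 138. Base 128 had 16 joins in BRCA1flox and base 138 had 23 in BRCA1del, and both were picked after their counts were seen. The intact end was kept in 20.7%, 16.1% and 9.86% of array joins in runs A, C and D of BRCA1del and in 10.8%, 18.7% and 12.4% in runs B, C and D of BRCA1flox, so the libraries overlapped. Within runs C and D, joins from the intact end were blunt in 18 of 50 in BRCA1del (36%) and 17 of 57 in BRCA1flox (29.8%). From base 142 they shared at least 2 bp in 24 of 35 (68.6%) and 17 of 29 (58.6%), and over all runs the order was turned, with 39 of 64 (60.9%) and 30 of 46 (65.2%). From base 141 they were blunt in 5 of 15 and 0 of 14 within runs C and D, and in 9 of 31 and 4 of 35 over all runs. Within runs C and D, loss of at least 10 bait bases was found in 176 of 338 (52.1%) and 170 of 343 (49.6%). That difference of 2.78 points (-4.79 to 10.4) did not pass (adjusted p = 0.766, exact conditional test). Over runs C and D the median loss was 10 bases in BRCA1del and 9 in BRCA1flox, with an upper quartile of 25 in each.

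Inserted bases were found at 9.33%, 13.9% and 18.3% of array joins in runs A, C and D of BRCA1del. In runs B, C and D of BRCA1flox the shares were 22.2%, 16.5% and 21.2%. The libraries overlapped, with run D of BRCA1del above run C of BRCA1flox. In the shared runs insertions were in 50 of 338 (14.8%) and 62 of 343 (18.1%), a difference of -2.73 points (-8.33 to 2.87; adjusted p = 0.639, exact conditional test). Pooled over all runs the shares were 12% and 20% and passed (adjusted p = 0.00032, Fisher's exact test). Pooling brings in the lowest BRCA1del and the highest BRCA1flox library, from runs that hold only 1 of these groups each. With all runs pooled, 5 of the 11 measures passed (45.5%).

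A single inserted base was found at 39 joins in BRCA1del and 52 in BRCA1flox over all runs, with adenine in 7 and 17, cytosine in 6 and 11, guanine in 12 and 14 and thymine in 14 and 10 of them. Single bases were not tested. Insertions of at least 10 bases were few, 14 in BRCA1del (median 21 bases, longest 76) and 21 in BRCA1flox (median 18, longest 86). Of these, 12 and 20 had at least 12 bases, the length of match that was searched for. A match to the cassette was in 3 of those 12 and 11 of those 20, and one to the bait in 0 and 2. The shared runs gave a share of such long insertions of 2.96% and 3.21% (adjusted p = 0.874, exact conditional test).

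Leftward joins at the first Ter element, the one nearest to the left end of the array, took a larger share of body joins in BRCA1del. Of 12 segments and orientations, 1 passed (8.33%), and this was the one. The first Ter element held 17.4%, 29.8% and 16.5% of body joins in runs A, C and D of BRCA1del and 16.5%, 18.5% and 15.2% in runs B, C and D of BRCA1flox. Only run C of BRCA1del stood clear of the other libraries. In runs C and D the counts were 111 of 416 (26.7%) and 78 of 447 (17.4%), a difference of 8.54 points (3.05 to 14) and an odds ratio of 1.66 (1.18 to 2.34; adjusted p = 0.0334, exact conditional test). Run D alone gave 1.32 points, and each position and strand counted once per library gave 2.17 points, and neither passed.

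No other leftward segment of the array passed. Segments were counted by deposited position, also for reads that did not reach beyond the repeats of the array. Leftward joins from after the first to the end of the third Ter element were 79 of 416 (19.0%) and 90 of 447 (20.1%), and those from the linker to the sixth Ter element 100 (24.0%) and 130 (29.1%). Neither passed (adjusted p = 0.890 and 0.537, exact conditional test), with differences of -1.07 points (-6.40 to 4.26) and -4.75 points (-10.7 to 1.17). Just before the first Ter element lay 8.82%, 8.78% and 5.15% of body joins in runs A, C and D of BRCA1del and 3.60%, 5.96% and 4.14% in runs B, C and D of BRCA1flox. The difference was 2.33 points within runs C and D and did not pass (adjusted p = 0.537, exact conditional test), and passed with all runs pooled (8.37% against 4.51%; adjusted p = 0.00877, Fisher's exact test). With all runs pooled, 4 of the 12 segments passed (33.3%).

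**Figure D3:**
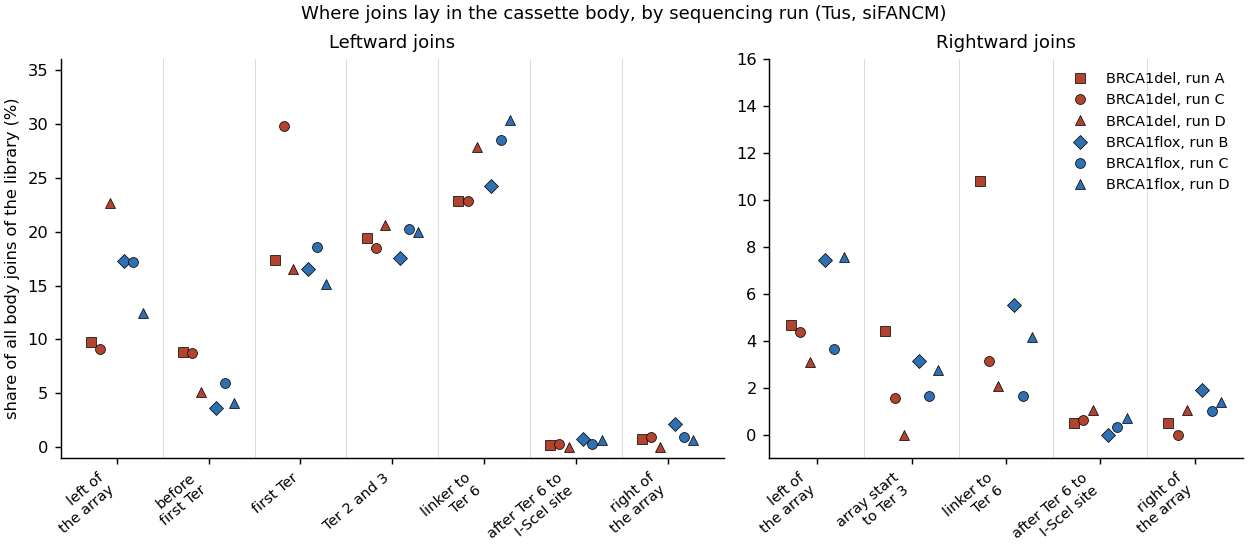
Share of all body joins of a library (%) in each segment of the cassette body, for leftward joins on the left and rightward joins on the right, with 1 point per sequencing run (square A, diamond B, circle C, triangle D; BRCA1del red, BRCA1flox blue). At the first Ter element run C of BRCA1del lies at 29.8% and the other 5 libraries at 15.2% to 18.5%, and among rightward joins run A of BRCA1del has 10.8% from the linker to the sixth Ter element.

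The array holds repeats, so a leftward join was called placed only where its read reached at least 20 bases beyond the left end of the array. Counts by segment, single position or Ter element elsewhere rest on the deposited position of every join, placed or not. For joins that were not placed, the repeat they belong to is less certain. Placed joins made up 79.6%, 76.6% and 63.2% of leftward array joins in runs A, C and D of BRCA1del. In runs B, C and D of BRCA1flox they made up 69.7%, 62.2% and 63.7%. The median placed position was 25, 18 and 29 bases past the first base of the first Ter element in runs A, C and D of BRCA1del, and 28, 22.5 and 26 bases in runs B, C and D of BRCA1flox. The medians of the genotypes overlapped, and in each genotype run C had the lowest. Placing a leftward read only if it reaches past the left end of the array favours places near that end. These medians and the share below therefore hold for placed joins, not for all leftward array joins. Placed joins at or before the end of the first Ter element were 135 of 239 (56.5%) in BRCA1del and 96 of 203 (47.3%) in BRCA1flox within runs C and D. That difference of 7.25 points (-2.13 to 16.6) did not pass (adjusted p = 0.451, exact conditional test).

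**Figure D4:**
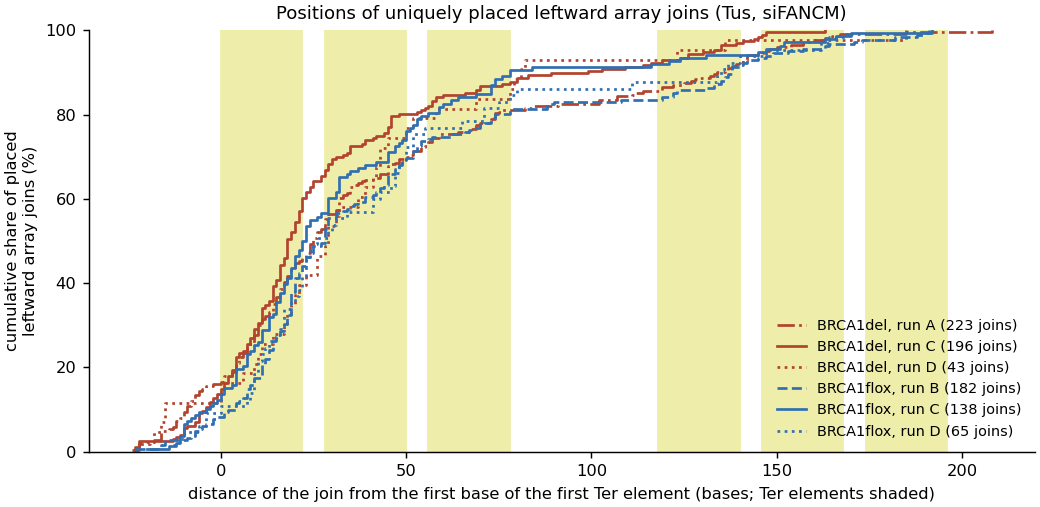
Cumulative share (%) of uniquely placed leftward array joins by distance in bases from the first base of the first Ter element, with 1 step line per library (BRCA1del red, BRCA1flox blue; line style by run) and the 6 Ter elements shaded. Medians lie 18 to 29 bases from that point, and run C of BRCA1del has the lowest median. Placement favours joins near the left end of the array.

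No single position dominated. The 1331 array joins of both tables lay at 280 combinations of position and strand, and 164 of these, with 86.9% of the joins, occurred in both genotypes. The 5 most used, with a tie for the last place given to the lower position, were all leftward, lay in the first Ter element, and held 108 joins (8.11%). Position 3067, base 20 of that element, had 7 joins in BRCA1del and 16 in BRCA1flox, of which 11 were in run B. Positions 3059 and 3068, bases 12 and 21, had 11 in each genotype. Position 3057 had 11 and 10, and position 3052 had 12 and 8. Tied with 3052 at 20 joins was position 3071, the base after that element, with 6 and 14.

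Blunt joins were spread over the array and were most frequent in BRCA1del just before the first Ter element. There, 14 of 32 leftward joins were blunt in BRCA1del (43.8%) and 1 of 24 in BRCA1flox (4.17%), within runs C and D. At the first Ter element the counts were 27 of 106 (25.5%) and 12 of 75 (16%). From after it to the third they were 15 of 79 (19.0%) and 14 of 90 (15.6%), and from the linker to the sixth 16 of 100 (16%) and 9 of 130 (6.92%). The blunt share was thus the larger one in BRCA1del in these 4 leftward segments. Microhomology ran the other way in the same 4, with 5 of 32 (15.6%) against 8 of 24 (33.3%), 37 of 106 (34.9%) against 32 of 75 (42.7%), 30 of 79 (38%) against 55 of 90 (61.1%), and 44 of 100 (44.0%) against 65 of 130 (50%). Rightward joins from the linker to the sixth Ter element had both orders turned within runs C and D, on few joins. There, 2 of 12 against 4 of 11 were blunt (16.7% and 36.4%). At least 2 bp were shared in 5 of 12 against 2 of 11 (41.7% and 18.2%). Over all runs this segment had the orders of the leftward segments, with 15 of 56 against 4 of 34 blunt (26.8% and 11.8%). At least 2 bp were then shared in 18 of 56 against 15 of 34 (32.1% and 44.1%). Rightward joins from the array start to the third were blunt in 2 of 5 and 1 of 9 within runs C and D. At least 2 bp were shared in 1 and 3 of them. These segments were looked at after the data were seen and were not tested one by one.

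Rightward joins were the minority of array joins, and their share varied more between runs than between genotypes. It was 18.6%, 6.23% and 4.23% in runs A, C and D of BRCA1del and 12.1%, 4.72% and 9.73% in runs B, C and D of BRCA1flox. BRCA1del was the higher in run C and BRCA1flox in run D. Within those runs 20 of 344 (5.81%) and 22 of 346 (6.36%) were rightward, a difference of -0.301 points (-3.77 to 3.17) that did not pass (adjusted p = 0.874, exact conditional test). Pooled over all runs it was 3.19 points, and pooled without run B it was 5.85 points and passed (adjusted p = 0.0118, Fisher's exact test), since run A alone gave 64 of the 84 rightward joins of BRCA1del.

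By segment, rightward joins from the array start to the third Ter element numbered 18, 5 and 0 in runs A, C and D of BRCA1del and 13, 5 and 4 in runs B, C and D of BRCA1flox. From the linker to the sixth Ter element they numbered 44, 10 and 2 against 23, 5 and 6. After the sixth Ter element, up to the I-SceI site, there were 2, 2 and 1 against 0, 1 and 1. Most rightward array joins of each genotype thus fell in the distal part of the array. In BRCA1del 61 of 84 were uniquely placed, with a median at 3224, and in BRCA1flox 36 of 58, with a median at 3204. A rightward read is placed only if it reaches past the right end of the array, which favours places near that end.

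To the left of the array, the shared runs had opposite orders of the genotypes. Leftward joins left of the array were 12.4%, 10.1% and 24.4% of leftward body joins in runs A, C and D of BRCA1del and 21.1%, 18.8% and 14.9% in runs B, C and D of BRCA1flox. Of the shared runs, BRCA1del was lower in run C and higher in run D. Within both runs the counts were 51 of 378 (13.5%) and 70 of 398 (17.6%), a difference of -3.81 points (-8.95 to 1.32; adjusted p = 0.451, exact conditional test). Run C alone gave -8.70 points and passed (adjusted p = 0.0140, Fisher's exact test), run D alone gave 9.57 points and did not pass, and all runs pooled gave -6.21 points and passed (adjusted p = 0.00440, Fisher's exact test).

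The structure of joins left of the array, of either direction, was compared in the same way. They were blunt in 14 of 59, 9 of 43 and 4 of 25 in runs A, C and D of BRCA1del and in 12 of 103, 9 of 63 and 1 of 29 in runs B, C and D of BRCA1flox. The blunt share was thus 23.7%, 20.9% and 16% against 11.7%, 14.3% and 3.45%. At least 2 bp were shared in 20, 16 and 14 of the BRCA1del joins (33.9%, 37.2% and 56%) and in 62, 35 and 16 of the BRCA1flox joins (60.2%, 55.6% and 55.2%). BRCA1del had the lower microhomology share in run C, while in run D its share was 0.828 points above that of BRCA1flox. Within runs C and D the differences were 8.68 points for blunt joins and -11.7 points for microhomology, and neither passed (adjusted p = 0.168 for each, exact conditional test). Pooled over all runs both passed (9.98 and -18.6 points; adjusted p = 0.0174 and 0.00276, Fisher's exact test). Their median distance from the array was 191, 181 and 249 bases in runs A, C and D of BRCA1del and 270, 367 and 344 bases in runs B, C and D of BRCA1flox, shorter in every BRCA1del library. Within 500 bases of the array lay 64.4%, 69.8% and 76% of these joins in runs A, C and D of BRCA1del. The shares were 65.0%, 60.3% and 62.1% in runs B, C and D of BRCA1flox, so on this measure the libraries overlapped. Distances and these shares were not tested. They and the test of structure left of the array were added after the data were seen.

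Joins right of the array were rare. They numbered 5, 3 and 1 in runs A, C and D of BRCA1del and 17, 6 and 3 in runs B, C and D of BRCA1flox, which is 1.23%, 0.940% and 1.03% against 4.08%, 1.99% and 2.07% of body joins. Each BRCA1del library lay below each BRCA1flox library. Within runs C and D the difference was -1.04 points (-2.66 to 0.569) and did not pass (adjusted p = 0.586, exact conditional test), and the permutation p over libraries was 0.10, the smallest possible.

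The body as a whole took about the same part of the listed junctions in both genotypes. The body share was 59.5%, 64.8% and 65.5% in runs A, C and D of BRCA1del and 65.8%, 63.0% and 72.5% in runs B, C and D of BRCA1flox. In the shared runs it was 416 of 640 (65.0%) and 447 of 679 (65.8%), a difference of -0.481 points (-5.63 to 4.67; adjusted p = 0.874, exact conditional test). The other junctions lay in the polyA region, where 4 combinations of position and strand held 398 of 951 junctions (41.9%). The EV control, of BRCA1del only, had nearly all of its junctions there.

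The genotype difference was set against that of the siLuciferase groups, which share no library with the siFANCM groups, in runs C and D. Of the 11 measures, 2 differed between the siRNAs (18.2%), and neither was a measure of join structure. The tests between siRNAs cover counting error only and hold no term for the spread between libraries. With siLuciferase the body held 63.2% of junctions in BRCA1del and 79.4% in BRCA1flox. In runs C and D with siLuciferase these shares were 59.6% and 71.1% in BRCA1del and 77.4% and 87.1% in BRCA1flox. The genotype odds ratio for the body share was thus 0.418 there and 0.979 with siFANCM, a ratio of odds ratios of 2.33 (1.72 to 3.16; adjusted p = 6e-07 by the likelihood-ratio test of genotype by siRNA and 5.7e-07 by an exact conditional test). In the siLuciferase groups 43 of 430 array joins (10%) were rightward in BRCA1del and 11 of 647 (1.7%) in BRCA1flox. The odds ratio for the rightward share was 6.03 there and 0.949 with siFANCM, a ratio of 0.157 (0.0623 to 0.398; adjusted p = 0.0003 by the likelihood-ratio test and 0.0005 by the exact conditional test). The body share did not pass without run C (adjusted p = 0.0716 and 0.105 by the likelihood-ratio and exact tests), nor the rightward share without run D (0.0886 and 0.117).

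For join structure the genotype odds ratios lay close together with both siRNAs. For blunt joins they were 2.03 with siFANCM and 2.11 with siLuciferase, with a ratio of 0.969 (0.554 to 1.7; adjusted p = 0.912 by the likelihood-ratio test and 1.00 by the exact conditional test). For microhomology of at least 2 bp they were 0.626 and 0.644, with a ratio of 0.970 (0.651 to 1.45; adjusted p = 0.912 and 1.00 by the same tests, the latter exact). The interval for blunt joins still allows the genotype odds ratio with siFANCM to be 0.554 to 1.7 times that with siLuciferase. In run D alone the microhomology odds ratios were 0.941 with siFANCM and 0.282 with siLuciferase and differed (adjusted p = 0.00626 by the likelihood-ratio test and 0.00818 by the exact test). In run C alone they were 0.537 and 0.928 and the difference did not pass (0.0886 and 0.117 by the same tests, the latter exact).

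**Figure D5:**
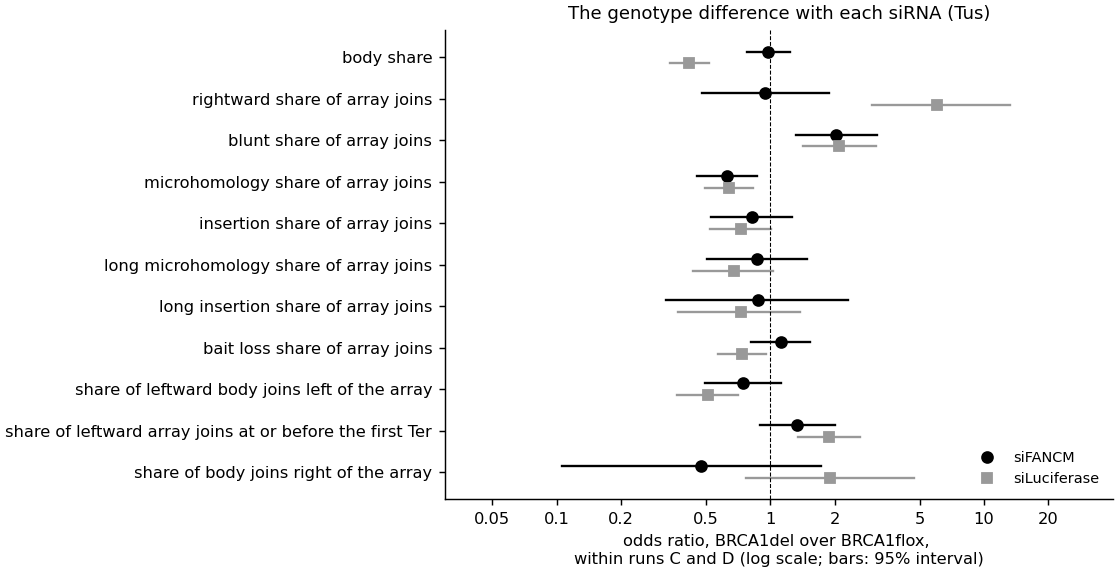
Odds ratio of BRCA1del over BRCA1flox for the 11 measures within runs C and D, on a log axis with 95% intervals from the exact conditional test, for siFANCM (black circles) and siLuciferase (grey squares). The siRNAs part at the body share (0.979 and 0.418) and the rightward share (0.949 and 6.03) and lie together at blunt joins (2.03 and 2.11) and microhomology (0.626 and 0.644).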

How the data were processed

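LAM-HTGTS junctions were taken from the tables the authors deposited, with 1 line per junction. Their values are other than counts: deposited positions, strand, alignment ends and read sequences. The submitters' processing notes name Bowtie2 and mm9, while junction filtering and duplicate removal are not given in the sources used here. Samples are pooled in the tables without replicate numbers, so each sequencing run of a group was taken as 1 library. Bait and cassette were rebuilt from the reads. In the linker after the third Ter element 847 of 889 reads held 38 bases where the deposited coordinates span 39, which was allowed for. Structure was called from seeds of 10 bait and 12 cassette bases, extended with 1 tolerated mismatch, for 681 of 688 and 640 of 643 array joins. Shared runs were compared with mantelhaen.test (R 4.3.3), pooled runs with Fisher's exact test, genotype by siRNA with a binomial likelihood-ratio test and an exact conditional test added later, all two-sided with Benjamini-Hochberg adjustment and a threshold of 0.05. The caller and test were tested on simulated data. Alternatives were other runs, single counting, thresholds and windows. The 5 positions with most array joins and the 3 commonest bait ends are named, besides values singled out after they were seen. The members and lists were chosen with earlier results of these data known. Python 3.11.15, pandas 2.3.3 and scipy 1.17.1 were used. Libraries of 148 to 686 junctions set the precision. P-values of the exact conditional, Fisher's exact and likelihood-ratio tests cover counting error of junctions only. The permutation alone compares libraries, whose spread may be technical. Amplified reads are not independent molecules.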

Additional observations from a re-analysis of the deposited data

Results flagged for a closer look

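Tests between the siRNAs covered counting error only. The genotype difference in the body share differed between siFANCM and siLuciferase, with a ratio of odds ratios of 2.33 in runs C and D. In run D alone the ratio was 1.97 and did not pass, and in run C alone it was 2.50 and passed. The genotype difference in the rightward share of array joins also differed between the siRNAs, with a ratio of odds ratios of 0.157. In run D alone it was 0.0333 and passed, and in run C alone it was 0.297 and did not pass. With each position and strand counted once per library the ratios were 1.82 and 0.223 and both passed (adjusted p = 0.0242 and 0.0154 by the likelihood-ratio test, 0.0261 for each by the exact conditional test).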

How the results depend on the processing

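No paired analysis was possible because the tables carry no replicate numbers, and the comparison was stratified by sequencing run in its place. Values are BRCA1del minus BRCA1flox in percentage points. With each position and strand counted once, blunt joins (10.2) and microhomology (-8.06) no longer passed, and long microhomology (0.224), long insertions (0.578) and the share up to the first Ter element (-1.22) turned sign. With only repeats of the same join dropped, blunt joins (9.81) and microhomology (-11.2) passed. Both also passed among joins without an insertion (11.1 and -15.2) and, in a check that was not planned, among leftward array joins (10.8 and -12.5). In the span of the Ter elements blunt joins (7.06) and microhomology (-9.77) no longer passed. Microhomology did not pass from 1 bp (-7.12), from 3 bp (-4.93) or with exact extension (-9.82), added after seeing the data, which turned long insertions to 0.105. Pooling all runs made insertions (-7.96), leftward joins left of the array (-6.21) and joins right of the array (-1.92) pass and turned rightward joins (3.19) and bait loss (-4.62). Leaving out run C or D from the shared runs gave -6.96 to 1.79 for the body, -5.51 to 1.51 for rightward joins, 5.76 to 11.3 for blunt joins, -14.8 to -1.51 for microhomology, -2.93 to -2.66 for insertions, -4.13 to 6.81 for long microhomology, 2.19 to 2.99 for bait loss, -8.7 to 9.57 for joins left of the array, -2.004 to 10.2 for the share up to the first Ter element, and -18.3 to 0.828 for microhomology left of the array. With all runs pooled but A or B, which changes the pooling too, the ranges were -3.69 to -0.804 for the body, -3.21 to 5.85 for rightward joins, 11.1 to 12.4 for blunt joins, -6.03 to -5.21 for insertions, -1.84 to -0.273 for bait loss and 4.22 to 10.8 for the share up to the first Ter element. The number of segments that passed was 1 in shared runs, 4 pooled, 0 without run C, 2 without run D and 0 with each position counted once. The number of measures that differed between the siRNAs was 2, with 4 without run C (3 by the exact conditional test) and 1 without run D. In each case the cause was not tested. Run D, with 71 and 113 array joins, limits what a single run can show.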
